A study of Rattus norvegicus with 6 samples.

Results

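The genes described here are the macrophage growth factors Csf1, Il34 and Csf2 and the receptor genes Csf1r, Csf2ra and Csf2rb, 6 of the 32623 genes in the deposited table. Members were taken by symbol; each symbol matched 1 row, and all 6 genes had enough counts to be tested. The samples were 6 libraries of rat liver tissue, 3 labelled HCC and 3 labelled TAE. The HCC group, named for the hepatocellular carcinoma of the series title, was left untreated and is the control. The TAE group received transarterial embolization, the blocking of arteries that feed a liver tumour. Strain, age, sex, the way tumours were raised, the time from embolization to sampling and the share of tumour in each piece of tissue are given in none of the sources used here. Replicates are called biosamples, without a statement that each came from its own animal, and the spread behind each p-value may therefore be technical.

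CSF1, also called M-CSF, and IL-34 are secreted proteins that bind the same receptor, the tyrosine kinase CSF1R, on monocytes and macrophages. Signals through CSF1R keep macrophages alive, among them the Kupffer cells that reside in liver sinusoids, and drive the maturation of monocytes. CSF2, also called GM-CSF, is made by activated lymphocytes and other cells and binds a receptor of an alpha chain, CSF2RA, that recognises the ligand and a beta chain, CSF2RB, that IL-3 and IL-5 receptors use as well and that signals through JAK2 and STAT5. In bulk tissue, fewer cells of a type and less RNA per cell cannot be told apart.

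The libraries held 13448286 to 16604067 counts each. In HCC the 3 libraries resembled each other (Pearson correlation of log2 CPM across tested genes 0.984 to 0.991), whereas the TAE libraries differed more (0.935 to 0.969), and TAE replicate 2 correlated at 0.967 to 0.969 with the HCC libraries. Genes are not independent replicates. The tissue label was checked on hepatocyte markers: all 11 in the table had counts in these libraries, and Alb, the albumin gene, averaged 14272 ± 1952 FPKM in the HCC and 9190 ± 5358 in the TAE libraries (mean ± SD, n = 3 per group). FPKM are counts scaled to the exonic length of the gene and to the total count of the library, so that levels of different genes can be set side by side.

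Of the 6 genes, Csf1, Csf1r and Csf2ra rose after TAE, none fell, and Il34, Csf2rb and Csf2 did not pass the test. The test was edgeR's quasi-likelihood test on counts with Benjamini-Hochberg adjustment over all 14499 genes tested and a threshold of 0.05, and at an unadjusted p under 0.05 there were 5 genes higher and 0 lower. Of all genes tested, 2.70% were called higher and 0.310% lower, and 15.9% were higher at an unadjusted p under 0.05. DESeq2 on the same counts called 5 of the 6 higher, where it called 8.90% of all genes higher. In 5 of the 6 genes every TAE library stood above every HCC library, a pattern seen in 21.9% of all genes tested. The median log2 change of the 6 genes was 0.96, beside -0.03 over all genes tested.

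Among the ligands, Csf1 was measured at 8.01, 7.72 and 6.99 FPKM in HCC replicates 1, 2 and 3 and at 14.7, 12.0 and 13.1 FPKM in TAE replicates 1, 2 and 3. The groups did not overlap, and the gap between them was wider than the spread within either. Csf1 (gene ENSRNOG00000018659, chromosome 2, 210522375 to 210550560, minus strand) rose 1.70-fold, a log2 change of 0.77 ± 0.15 (SE; edgeR adjusted p = 0.0495). This call lay just inside the threshold.

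Il34 (gene ENSRNOG00000017602, chromosome 19, 40855433 to 40904121, plus strand) was the ligand with the lowest level in HCC, at 1.75, 1.49 and 2.46 FPKM in replicates 1, 2 and 3, from 44, 35 and 61 counts. In TAE it stood at 5.30, 3.27 and 4.51 FPKM, from 135, 95 and 131 counts. All TAE libraries lay above all HCC libraries, but the nearest pair, HCC replicate 3 and TAE replicate 2, had 95% Poisson intervals of 1.88 to 3.17 and 2.65 to 4.00 FPKM that overlap; these intervals cover counting error only. The log2 change was 1.16 ± 0.32 (edgeR adjusted p = 0.0998), as large in size as that of Csf1r but with a wider error. DESeq2 on the same counts gave 1.15 with an adjusted p of 0.0171.

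Csf2 (gene ENSRNOG00000026805, chromosome 10, 39602089 to 39604070, minus strand) was the member whose groups overlapped. It was measured at 5.84, 6.07 and 4.65 FPKM in HCC and at 4.67, 6.43 and 2.87 FPKM in TAE, in replicates 1, 2 and 3. The highest and the lowest of the 6 libraries were both from the TAE group, replicates 2 and 3. The log2 change was -0.33 ± 0.31 (edgeR adjusted p = 0.536). Csf2 had few counts, 21 to 47 per library over an exonic size of 441 bases. The TAE replicate 3 value had a 95% Poisson interval of 1.78 to 4.38 FPKM, and leaving out 1 library gave log2 changes from -0.54 to -0.12.

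Csf1r, the receptor of CSF1 and IL-34, was the most abundant member in both groups. It was measured at 54.8, 48.7 and 42.0 FPKM in HCC replicates 1, 2 and 3 and at 126, 85.7 and 123 FPKM in TAE replicates 1, 2 and 3. TAE replicate 2 stood lowest of its group and still above every HCC library. Csf1r (gene ENSRNOG00000018414, chromosome 18, 56414488 to 56458300, plus strand) rose 2.26-fold, a log2 change of 1.18 ± 0.23 (edgeR adjusted p = 0.0487).

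Csf2ra, the ligand-binding chain of the GM-CSF receptor, showed the largest log2 change of the 6 genes. It was measured at 17.3, 18.9 and 16.0 FPKM in HCC replicates 1, 2 and 3 and at 45.5, 36.0 and 51.6 FPKM in TAE replicates 1, 2 and 3. Csf2ra (gene ENSRNOG00000049782, chromosome 14, 1462358 to 1467264, plus strand) rose 2.51-fold, a log2 change of 1.33 ± 0.22 (edgeR adjusted p = 0.0394). All TAE libraries exceeded all HCC libraries, with replicate 3 the highest. In the table the cytokine receptor gene Crlf2 lies on the opposite strand, 815 bases away; the counting is not stated to use strand, but the 2 gene models do not overlap.

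Csf2rb, the signalling chain shared with the receptors of IL-3 and IL-5, was measured at 21.8, 22.1 and 19.5 FPKM in HCC replicates 1, 2 and 3 and at 41.4, 30.2 and 29.2 FPKM in TAE replicates 1, 2 and 3. By FPKM, replicate 1 stood apart from the other TAE libraries, which were close to each other and above all HCC libraries. This grouping depended on the scaling: relative to the HCC mean of log2 CPM with TMM scaling, TAE replicates 1, 2 and 3 stood at 0.88, 0.32 and 0.61. The log2 change of Csf2rb (gene ENSRNOG00000000187, chromosome 7, 119554354 to 119568776, plus strand) was 0.62 ± 0.16 and did not pass over all genes with edgeR (adjusted p = 0.0854). DESeq2 gave the same size of 0.62 with an adjusted p of 0.0235.

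**Figure D1:**
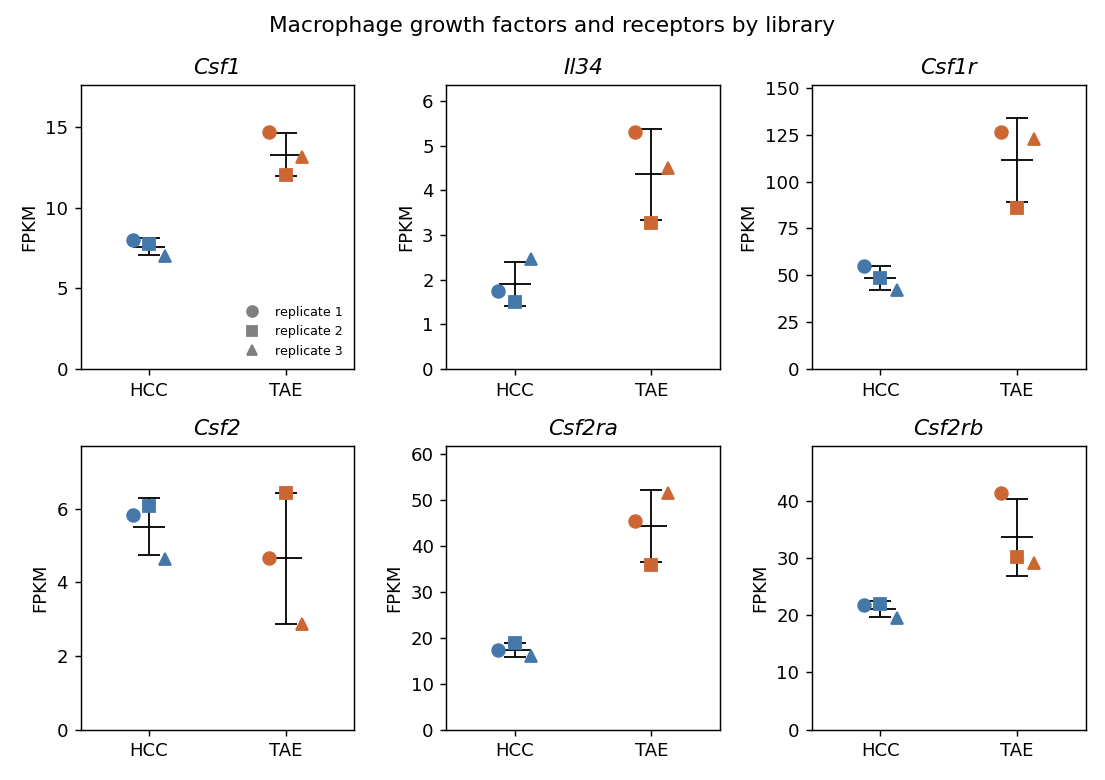
FPKM of the 6 genes (y axes, from 0) in each HCC and TAE library; points are libraries with the replicate number as shape, and bars are the mean ± SD of 3 libraries. The groups are separate for every gene except Csf2, whose TAE libraries span 2.87 to 6.43 FPKM.

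The calls depended on which libraries were included. Without HCC replicate 1, 2 or 3 or without TAE replicate 1, none of the 6 genes passed with edgeR (0 in each fit, where 0% of all genes were called higher). In each of these fits 5 of the 6 were higher at an unadjusted p under 0.05. So were 1658 to 1847 of the 14675 to 14824 genes fitted. Over all 6 omissions log2 changes kept their sign, and stayed within 0.70 to 0.90 for Csf1, 1.02 to 1.39 for Csf1r and 1.11 to 1.52 for Csf2ra. Without TAE replicate 2, 5 genes rose, Il34 (1.38, edgeR adjusted p = 0.0167) and Csf2rb (0.75, adjusted p = 0.0111) with the 3 above, against a background of 14.6% of genes called higher in that fit; without TAE replicate 3, 3 genes rose against 4.82%.

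**Figure D2:**
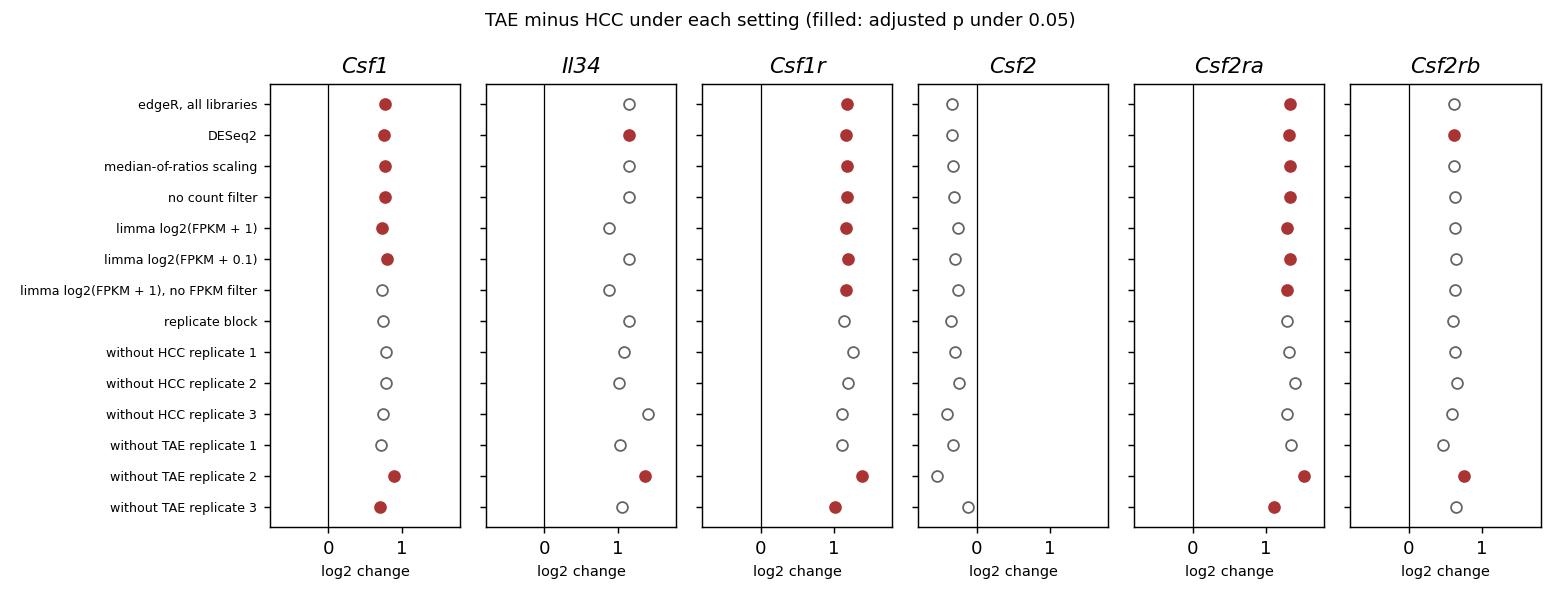
Log2 change of each gene, TAE minus HCC (x axes), for each setting (y axis: the test with all libraries, other tools, scalings and filters, the replicate block, and each library left out); filled points have an adjusted p under 0.05. In all settings shown, 5 genes stay to the right of 0 and Csf2 to the left, and every gene except Csf2 has both filled and open points.

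The order of levels differed between the groups. In HCC the mean FPKM descended from Csf1r (48.5 ± 6.36) through Csf2rb (21.1 ± 1.39), Csf2ra (17.4 ± 1.45), Csf1 (7.57 ± 0.526) and Csf2 (5.52 ± 0.762) to Il34 (1.90 ± 0.502), and no neighbours in that order overlapped between libraries. In TAE it descended from Csf1r (112 ± 22.5) through Csf2ra (44.3 ± 7.86), Csf2rb (33.6 ± 6.75), Csf1 (13.3 ± 1.34) and Csf2 (4.66 ± 1.78) to Il34 (4.36 ± 1.02). There, Csf2ra overlapped with Csf2rb, and Csf2 with Il34. The highest TAE library depended on the scaling: Csf1r was highest in replicate 1 by FPKM but, relative to the HCC mean of log2 CPM with TMM scaling, stood at 1.30, 0.63 and 1.49 in TAE replicates 1, 2 and 3.

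Ratios within a library do not depend on its depth. The ratio of Csf2ra to Csf2rb, taken on FPKM + 0.1, was 0.796, 0.856 and 0.819 in HCC replicates 1, 2 and 3, so that the shared chain exceeded the alpha chain in each. In TAE replicates 1, 2 and 3 it was 1.10, 1.19 and 1.76, with the alpha chain the more abundant in each. The mean log2 ratio was -0.28 ± 0.05 in HCC and 0.40 ± 0.36 in TAE, a difference of 0.68 (exact two-sided permutation test, p = 0.10, the smallest that 3 against 3 allows; Benjamini-Hochberg 0.300 over 6 ratios). The ratio of the ligand Csf1 to its receptor Csf1r was 0.148, 0.160 and 0.168 in HCC and 0.117, 0.141 and 0.108 in TAE. The groups did not overlap here either, and the log2 difference was -0.39 (exact permutation p = 0.10, adjusted 0.300). The ratio of Csf1 to Il34 was 4.38, 4.92 and 2.77 in HCC and 2.74, 3.59 and 2.87 in TAE, with Csf1 above Il34 in every library and groups that overlapped (log2 difference -0.36, exact permutation p = 0.300, adjusted 0.450). This difference was -0.20 without HCC replicate 2, -0.61 without HCC replicate 3 and -0.15 with a pseudocount of 1.

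Part of the macrophage and monocyte markers rose too. Of 19 such markers in the table, all tested and none at 0, 6 rose (Cd68, Lyz2, Aif1, Itgam, Msr1 and Fcgr1a). Another 13 did not pass and 0 fell, where edgeR called 2.70% of all genes tested higher and 0.310% lower. In 14 of the 19 every TAE library stood above every HCC library, beside 21.9% of all genes tested. The median log2 change of the list was 1.16, and 4 markers had a negative log2 change. The summed level of the 19 markers was 1866 to 2184 FPKM in HCC and 4424 to 6701 FPKM in TAE. Lyz2, the myeloid lysozyme and the most abundant of them, had 801 ± 124 FPKM in the HCC and 3226 ± 388 in the TAE libraries. Markers of resident Kupffer cells in that list were not among those that rose: the log2 change was -0.38 ± 0.41 for Clec4f, -0.05 ± 0.76 for Marco, 0.42 ± 0.50 for Vsig4 and -0.10 ± 0.31 for Cd163 (edgeR adjusted p from 0.588 to 0.973). These means average unlike TAE libraries. In TAE replicates 1, 2 and 3, Marco stood at 13.7, 12.6 and 80.5 FPKM and Clec4f at 42.2, 35.9 and 89.8. Cd5l, another gene of the list (log2 change -0.13 ± 0.57), stood at 41.4, 27.9 and 115 FPKM. All 3 genes lay below every HCC library in replicates 1 and 2 and above every HCC library in replicate 3. Vsig4 and Cd163 were below every HCC library in replicate 2 and above in replicate 3.

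Relative to the mean log2 level of these 19 markers, Csf1r stood at 0.31, 0.06 and 0.09 in HCC replicates 1, 2 and 3 and at 0.70, 0.53 and 0.10 in TAE replicates 1, 2 and 3. TAE replicate 3 lay within the HCC range and the other two above it, and the difference of means was 0.29 (exact permutation p = 0.200, adjusted 0.400), with 0.17 without TAE replicate 1 and 0.47 without TAE replicate 3. Csf2rb stood at -1.02, -1.08 and -1.01 in HCC, and at -0.91, -0.97 and -1.97 in TAE, where replicate 3 lay far below the rest. Relative to the markers, Csf1 was likewise lowest in TAE replicate 3, with -2.45, -2.58 and -2.48 in HCC and -2.40, -2.29 and -3.11 in TAE. By its own FPKM, Csf1 in that library (13.1) lay between TAE replicates 2 (12.0) and 1 (14.7). Csf2rb in that library (29.2 FPKM) lay next to TAE replicate 2 (30.2) and above every HCC library. The differences of means for Csf2rb and Csf1, -0.24 and -0.09, were no larger than the spread between TAE libraries (exact permutation p = 1.00 each, adjusted 1.00), and turned to 0.10 and 0.16 without TAE replicate 3. They were -0.43 and -0.20 without TAE replicate 1, and -0.40 and -0.25 without TAE replicate 2.

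**Figure D3:**
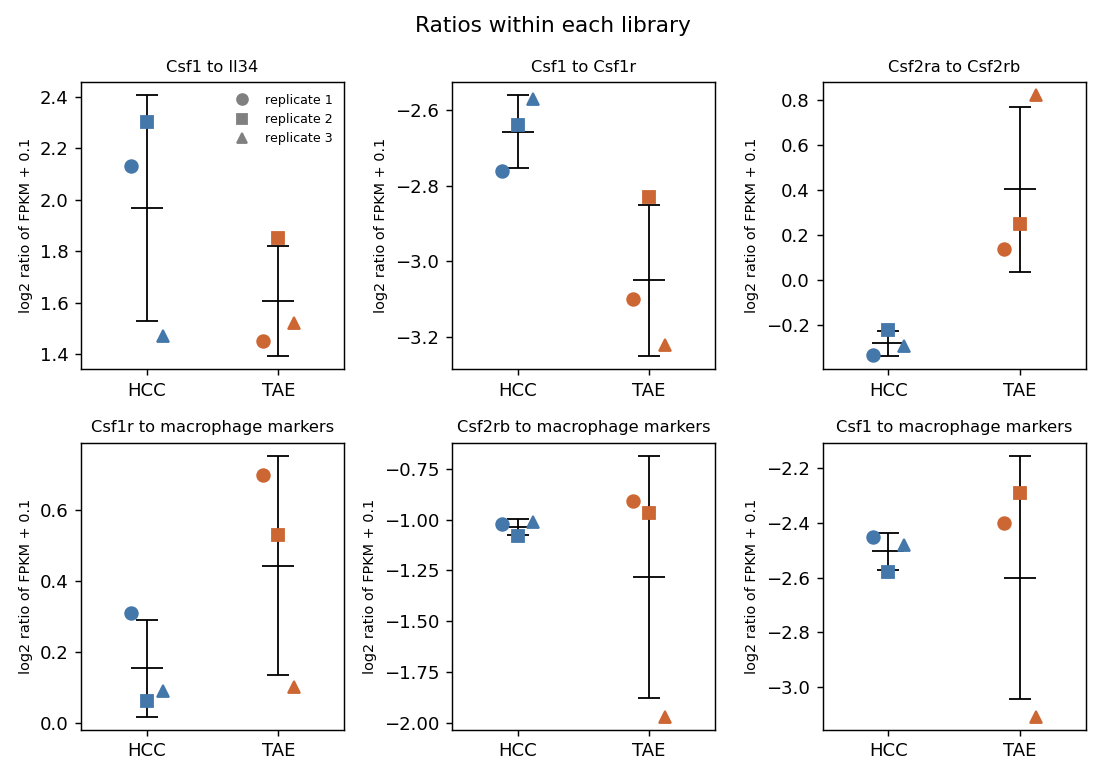
Log2 ratios of FPKM + 0.1 (y axes) within each library for 6 pairs of quantities; points are libraries with the replicate number as shape, bars the mean ± SD of 3 libraries, and "macrophage markers" is the mean log2 level of 19 genes. The groups are separate for Csf2ra to Csf2rb and for Csf1 to Csf1r, and TAE replicate 3 lies lowest in the ratios of Csf2rb and Csf1 to the markers.

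Summed levels of markers of other cells that the tissue can hold are given beside the 6 genes. Over all genes tested, edgeR called 2.70% higher and 0.310% lower. Fibroblast and stellate cell markers (11 tested, 1 higher, 0 lower, none at 0) summed to 481 to 760 FPKM in HCC and to 3120, 1190 and 1514 FPKM in TAE replicates 1, 2 and 3. Endothelial markers (11 tested, 0 higher or lower) summed to 81.8 to 94.0 FPKM in HCC and to 86.3 to 148 in TAE. T and NK cell markers (12 tested, 0 higher or lower) summed to 168 to 241 FPKM in HCC and 302 to 511 in TAE. The highest of them were Cd8a (66.4 ± 16.0 FPKM in HCC and 161 ± 36.1 in TAE) and Cd4 (28.5 ± 3.15 and 72.0 ± 24.0), neither of which passed, and rat macrophages carry CD4 as well. Cd3d, Cd3e, Cd3g and Lck, which are restricted to T cells or to T and NK cells, overlapped between the groups, with log2 changes of 0.10 to 0.40 (edgeR adjusted p from 0.419 to 0.872). Cd247, Nkg7, Gzmb and Prf1 overlapped too. In Cd8b and Ncr1, in contrast, every TAE library stood above every HCC library. Their log2 changes were 0.97 ± 0.37 and 1.42 ± 0.35, and neither passed (edgeR adjusted p = 0.186 and 0.0760). Dendritic cell markers (10 tested, 3 higher) summed to 28.2 to 33.0 FPKM in HCC and 50.8 to 69.4 in TAE. Mast cell and basophil markers (6 of 7 tested, 1 higher) summed to 18.8 to 23.9 FPKM in HCC and 48.1 to 100 in TAE, and B and plasma cell markers (6 of 7 tested, 0 higher or lower) to 14.2 to 21.5 and 37.0 to 145. Neutrophil markers (5 of 11 tested, 0 higher or lower) summed to 29.6 to 59.7 FPKM in HCC and 62.4 to 146 in TAE. No list had a marker without counts in all libraries. Hepatocyte markers (11 tested, 0 higher or lower) summed to 23556 to 29050 FPKM in HCC and to 13844, 10337 and 30336 FPKM in TAE replicates 1, 2 and 3. Cholangiocyte markers (7 tested, 1 higher) summed to 21.2 to 61.9 FPKM in HCC and 113 to 257 in TAE. Proliferation markers (8 tested, 0 higher or lower, 8 with a negative log2 change) summed to 430 to 473 FPKM in HCC and to 364, 495 and 144 FPKM in TAE replicates 1, 2 and 3, where replicate 3 stood far below the rest. The sums of endothelial, hepatocyte and proliferation markers overlapped between the groups, and those of the other lists did not. A sum is set mostly by its most abundant genes and does not speak for the whole list. Over all genes tested, every TAE library exceeded every HCC library in 21.9%. Of tested markers, it held for 4 of 12 for T and NK cells and 1 of 5 for neutrophils, both not far from that share. It held for 4 of 10 dendritic cell, 4 of 7 cholangiocyte and 3 of 6 B and plasma cell markers. For mast cell and fibroblast markers it was 5 of 6 and 8 of 11. Spp1 alone gave 209, 88 and 176 FPKM of the cholangiocyte sums in TAE replicates 1, 2 and 3 (257, 113 and 200). The part of all these cells in the levels of the 6 genes was not tested.

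A list of 22 genes around CSF1R signalling was described, all of them tested. It held adaptors, kinases, phosphatases, transcription factors, a protease and alternative IL-34 receptors, not all of which act downstream of CSF1R. Of the 22 genes, 12 rose, 0 fell (0 also at an unadjusted p under 0.05) and 10 did not pass, with a median log2 change of 0.98. Over all 14499 genes tested, edgeR called 2.70% higher and 0.310% lower, and 989 were lower at an unadjusted p under 0.05. Many genes of the list serve other myeloid receptors too. Syk, a kinase recruited by ITAM adaptors, rose from 8.17 ± 0.506 to 22.6 ± 4.68 FPKM (log2 change 1.44 ± 0.23). Mitf, a transcription factor that acts in osteoclasts and macrophages, rose from 2.45 ± 0.298 to 6.34 ± 1.5 FPKM. Tyrobp, the ITAM adaptor DAP12, was measured at 85.6, 91.6 and 79.1 FPKM in HCC and at 209, 178 and 247 in TAE, and Spi1, which encodes the myeloid transcription factor PU.1, at 18.9, 21.2 and 18.1 in HCC and at 44.1, 43.0 and 51.1 in TAE. Both rose, with log2 changes of 1.28 ± 0.21 and 1.22 ± 0.18 (edgeR adjusted p = 0.0394 and 0.0388). Pik3cg, a phosphoinositide 3-kinase of leukocytes, and Plcg2, a phospholipase of haematopoietic cells, rose by log2 changes of 1.27 ± 0.20 and 1.25 ± 0.17.

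The widely expressed members of the same list did not pass. The adaptors Grb2 and Shc1 had log2 changes of 0.13 ± 0.12 and 0.46 ± 0.16, the exchange factor Sos1 -0.09 ± 0.14, and the ubiquitin ligase Cbl, which directs CSF1R to degradation, 0.12 ± 0.39. Sdc1 and Ptprz1, alternative binding partners of IL-34, had log2 changes of -0.01 ± 0.14 and 1.32 ± 0.59, and Ptprz1 was low, at 0.230 ± 0.0400 FPKM in HCC. Adam17, a protease that sheds CSF1 and CSF1R from the cell surface, had a log2 change of 0.45 ± 0.13 (edgeR adjusted p = 0.108).

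Of 17 genes of GM-CSF, IL-3 and IL-5 receptor signalling, 15 were tested, 2 rose, 0 fell (0 also at an unadjusted p under 0.05) and 13 did not pass, with a median log2 change of 0.25 (0.39 without HCC replicate 2). Beside them, 2.70% of all genes tested were called higher and 0.310% lower. The 2 that rose were Irf5 and Irf8, transcription factors of macrophages and dendritic cells. Irf5 rose from 10.5 ± 1.30 to 27.2 ± 3.71 FPKM (log2 change 1.32 ± 0.15) and Irf8 from 39.6 ± 3.21 to 75.4 ± 3.15 FPKM (0.88 ± 0.14, edgeR adjusted p = 0.0388 for both). Jak2, the kinase bound to CSF2RB, had a log2 change of 0.56 ± 0.17, Stat5a 0.83 ± 0.27 and Stat5b 0.06 ± 0.17 (edgeR adjusted p = 0.116, 0.140 and 0.859). Cish, a target and inhibitor of STAT5 signalling, had 2.51 ± 0.145 FPKM in the HCC and 3.62 ± 0.845 in the TAE libraries. It did not pass (log2 change 0.46 ± 0.20, edgeR adjusted p = 0.227). The alpha chains that share CSF2RB, Il3ra and Il5ra, had log2 changes of 0.25 ± 0.16 and -0.72 ± 0.54. Of their ligands, Il5 had no count in any library and Il3 too few to be tested.

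Among 16 other haematopoietic growth factors and receptors, 15 were in the table and 11 were tested. None passed with edgeR in either direction. At an unadjusted edgeR p under 0.05, 4 were higher, beside 15.9% of all genes tested, and 0 lower. DESeq2 called 2 higher, beside 8.90% of all genes. The median log2 change was 0.39. That median was 0.21 without TAE replicate 3, 0.09 with no count filter and 0.02 with limma without an FPKM filter. Csf3r, the G-CSF receptor of neutrophils, averaged 13.0 ± 1.88 FPKM in the HCC and 18.4 ± 4.42 in the TAE libraries (log2 change 0.44 ± 0.18). Flt3lg, a growth factor of dendritic cells, stood at 1.66 ± 0.175 and 3.46 ± 0.749 FPKM (1.04 ± 0.31, edgeR adjusted p = 0.114). Without HCC replicate 1, 2 or 3 or without TAE replicate 1, edgeR called 0 genes of all 3 lists.

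**Figure D4:**
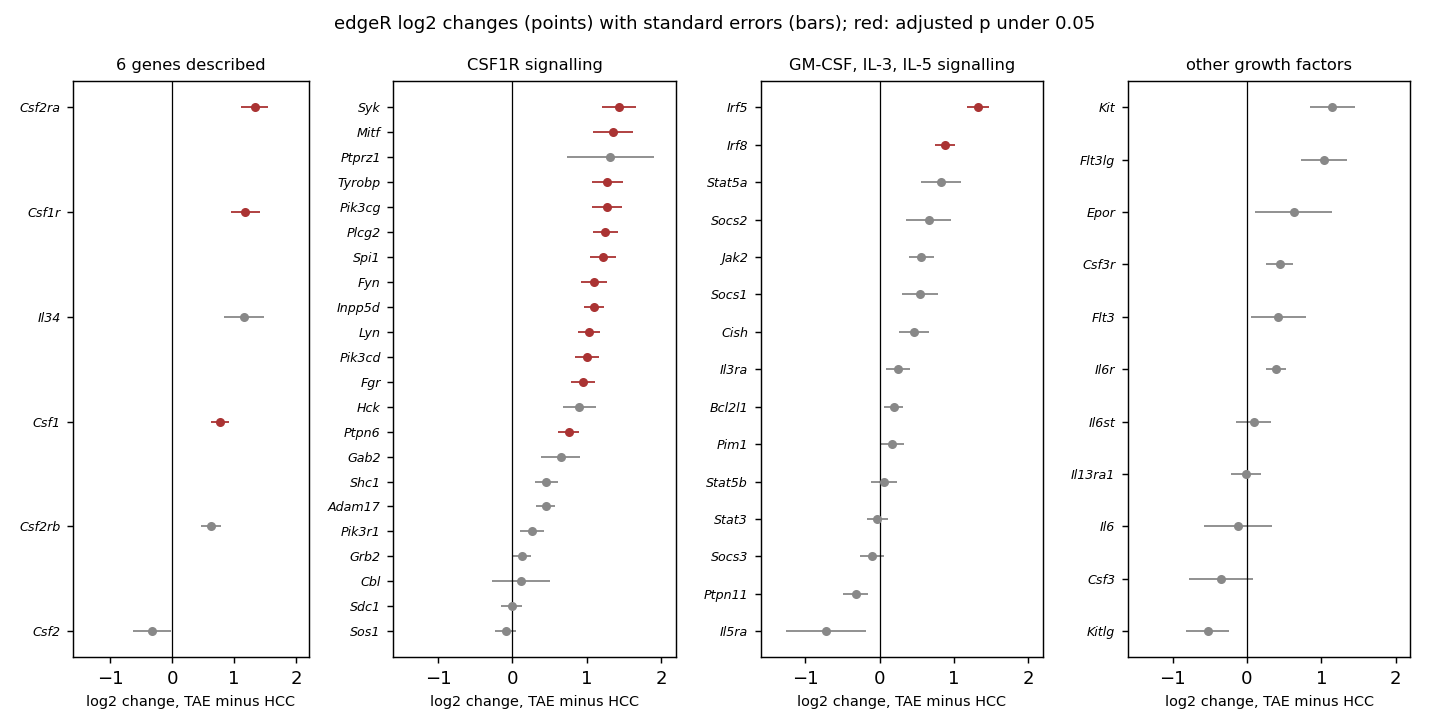
Log2 changes, TAE minus HCC (x axes), with standard errors (bars) for the 6 genes and the tested genes of 3 signalling lists (y axes, ordered by size); red points passed an adjusted p of 0.05. In the CSF1R list 12 of 22 points are red, in the GM-CSF list 2 of 15 and among other growth factors 0 of 11.

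The genes whose log2 CPM followed each member over the 6 libraries were sought among 11720 tested genes with a mean of at least 1 FPKM. The libraries share their group, so a high correlation is common: 774 genes exceeded 0.95 with Csf1, 720 with Csf1r, 792 with Csf2ra, 484 with Csf2rb, 109 with Il34 and 108 with Csf2. The nearest to Csf1r were Adgrg6 (0.999), the scavenger receptor gene Msr1 (0.998) and Leprot (0.998). The nearest to Csf2ra were Trim35, Cyb5r1 and Tyrobp (0.999 or above), and to Csf1 the myeloid surface receptor genes Cd84, Cd200r1 and C3ar1 (0.998 to 0.999). Csf2rb lay nearest to Mrvi1, Smo and Rhoj (0.998 or above). Il34 lay nearest to Mgarp (0.998), Golga7 and Anapc13, and Csf2 to Eme1 (0.999), Nup88 and N4bp2l2.

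Promoter sequence was at hand for 3 of the 6 genes, Csf1r, Csf2ra and Csf2, from RefSeq on the GRCr8 build. The 250 bases before each listed transcript start were searched on both strands for GAGGAA, the core letters of many PU.1 sites, because Spi1 rose together with Csf1r and Csf2ra. GAGGAA was found in all 3, and 23.3% of 33469 promoters of that length hold it. In Csf2ra it begins 41 bases before the listed start on the gene's own strand, which is minus on GRCr8 although the deposited table places Csf2ra on the plus strand, and in Csf2 it lies on the opposite strand, 77 to 72 bases before the start, so Csf2, which did not pass the test, carries the same letters. The matches are shown 5′ to 3′ with 12 bases on either side and GAGGAA in capitals, Csf2ra from chr14:118141-118170 (minus strand) and Csf2 from chr10:38889733-38889762 (plus strand, opposite to the gene).
Csf2ra: caacccaaagatGAGGAAgtgggagcaagg
Csf2: tatacacagttaGAGGAAatgattaatggt
RefSeq's span of Csf1r and Csf2ra reaches further upstream than the listed start. A match of 6 letters is a description and not a site of binding. Of 4 further motifs searched likewise, TGTGGT and TTCNNNGAA occurred in Csf2 alone of the 3 promoters (14.5% and 7.67% of all promoters hold them), and TGANTCA and TATAAA in none of the 3 (6.34% and 12.9%).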

How the data were processed

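The authors deposited 1 table that gives, per the file headers, raw counts and FPKM for each gene in each library, with exonic sizes and coordinates. The deposited FPKM equal the count scaled to exonic size and library total (100% of values within 0.006). Libraries were poly(A)-selected and strand-specific, per the labels' protocols. The build in the submitters' processing notes is mRatBN7.2, but gene ends on chromosome 1 reach 282724300, beyond that build, and it is thus unclear to which build the printed coordinates belong. The aligner, the counting tool and its use of strand are given in none of these sources.

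Counts were fitted with edgeR 4.0.16 (R 4.3.3; TMM, filterByExpr, quasi-likelihood, two-sided, no block) over 14499 genes; standard errors are the absolute change over the square root of F. Alternatives were DESeq2 1.42.0, limma 3.58.1 on log2(FPKM + 1) and log2(FPKM + 0.1) for genes averaging 0.5 FPKM or more (the first also unfiltered), median-of-ratios scaling, no count filter, a replicate block and leaving out each library. Of 179 list entries 174 matched a symbol; Il4ra, Mpeg1, Pecam1, Col1a2 and Ahsg were not analysed here. Ratios used exact permutation tests.

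The members and lists were chosen with earlier results of these data known. Named genes were the 6 members, 7 genes of their pathways, up to 4 further genes per pathway list that passed, the 3 genes most correlated with each member, and the most abundant gene of a marker list; others were named after their values were seen. Scripts were tested on simulated data.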

Additional observations from a re-analysis of the deposited data

How the results depend on the processing

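Directions of the 6 genes were the same in every alternative run, and so were those of the 6 ratios except Csf2rb and Csf1 to the macrophage markers, at 0.10 and 0.16 without TAE replicate 3. Without a filter on FPKM, limma gave Csf1 0.73 (adjusted p = 0.0581). DESeq2 called 5 of the 6 genes higher (Il34 at 1.15 and Csf2rb at 0.62 in addition), 2 of the other growth factors, and 1667 genes in all, beside 437 with edgeR, 829 without a count filter, 701 with limma on log2(FPKM + 1) and 709 on log2(FPKM + 0.1). Leaving out 1 library gave log2 changes of 0.70 to 0.90 for Csf1, 1.02 to 1.42 for Il34, 1.02 to 1.39 for Csf1r, 1.11 to 1.52 for Csf2ra, 0.47 to 0.75 for Csf2rb and -0.54 to -0.12 for Csf2. The number higher then ranged from 0 to 5 of the 6 genes, 0 to 15 of the CSF1R list, 0 to 4 of the GM-CSF list (0 to 1 lower) and 0 to 3 of the other growth factors, and the number called among all genes from 0 to 3569; each upper end of these counts came without TAE replicate 2. With the replicate number as a block, Csf1, Csf1r and Csf2ra changed by 0.75, 1.14 and 1.29 and 0 genes passed in edgeR (0 of the 6, 0 in every list and 0 of all genes). In that fit 5 of the 6 were higher at an unadjusted p under 0.05, beside 1913 of all 14499 genes. The numbers are not stated to pair libraries, and deviations of same-numbered libraries correlated at 0.10, -0.21 and 0.03. The causes were not tested. Csf2 had 21 to 47 counts per library and Il34 had 35 to 61 in HCC; the part of depth in their results was not tested.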
